A study of Rattus norvegicus with 102 samples.

Results

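The CA1 subfield of 12 aged rats with impaired spatial memory (AI) was compared with CA1 of 10 young rats. These are the libraries whose column names carry the CA1 label with the label of the impaired aged or of the young group, 22 of the 102 libraries of the series, and every one of them was used. All animals were male Fischer 344 rats, 5 to 6 months old in the young group and 17 to 22 months old in the aged groups, and the labels name no drug, allele or diet. AI status was given to aged rats by their search score in a water-maze probe trial, and aged rats that scored like young rats formed the unimpaired group (AU, 12 rats). The series holds 1 poly-A-selected Ion Proton library from each of 3 dissected hippocampal subfields (CA1, CA3 and the dentate gyrus, DG) of 34 rats, so each CA1 library came from a different rat. Rats were sacrificed weeks after water-maze testing and not directly after it. The young group was trained as well, so both groups carry that experience. Each library is a piece of dissected tissue and not a sorted cell type: fewer cells of a type and less RNA per cell cannot be told apart in it.

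CA1 pyramidal neurons are the main output of the hippocampus and are required for spatial memory. In the aging rodent brain the cells most often described as altered are microglia, the resident macrophages, which carry the C1q complement proteins, take up debris into lysosomes and can present peptides on class II major histocompatibility complex (MHC) molecules, and astrocytes, which carry Gfap and make complement C3 and C4. Calcium entry and release from internal stores in CA1 neurons, and the immediate early genes that neuronal firing induces, are further classical subjects of work on memory in aged rats.

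Read totals ran from 6851026 to 21467303 in AI (median 10688123) and from 7185647 to 17306878 in young CA1 libraries (median 13389945). Genes with at least 1 read ran from 15942 to 19799 in AI and from 18479 to 19663 in young libraries. In 4 AI libraries (rats R9874, R1931, R9870 and R2233), 16.6 to 26.2% of genes lay more than 2-fold from the median CA1 library, while no other AI or young library exceeded 6.29%. R9874 and R2233 also had the fewest genes detected, 15942 and 16688. Values without these 4 libraries are given beside some of the lists and genes whose values moved with them, and not beside all. Of the 12 AU CA1 libraries, 4 also exceeded 10% (up to 40.6% in R2232), as did 4 AI and 1 young library of CA3 (up to 47.03%) and 2 AI libraries of DG. The CA1 marker score was the highest of the 3 subfield scores in all 10 young and in 10 of 12 AI libraries, and was exceeded by the dentate score in AI rats R9781 and R9872. Rat identifiers fall into a series starting with R9 (5 AI and 5 young) and one starting with R1 or R2 (7 AI and 5 young). The study worked at 2 institutions, and the labels do not link the identifiers to them.

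**Figure D1:**
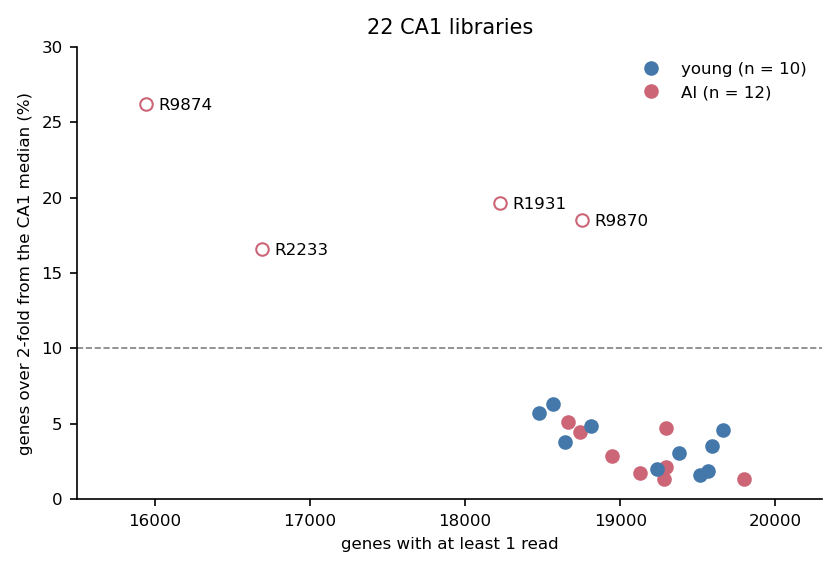
Each point is 1 CA1 library, with the number of genes that have at least 1 read on the horizontal axis and the percentage of genes more than 2-fold from the median CA1 library on the vertical axis. The 4 AI libraries above the dashed line at 10% are drawn open, and all 10 young libraries lie below it.

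No gene was called between AI and young CA1. limma was fitted on log2(normalized count + 1) for 16373 genes, and 0 of them had an adjusted p under 0.05. The smallest adjusted p was 0.23, and an unadjusted p under 0.05 was found for 766 genes (4.68%), 414 higher (2.53%) and 352 lower (2.15%) in AI. edgeR's quasi-likelihood test on the recovered reads also called 0 genes, with 931 at an unadjusted p under 0.05. DESeq2 called 4 genes and limma with library weights called 18 (0.11%), 17 of them higher in AI. No gene had all 12 AI values above or below all 10 young values (0%). With the 4 AI libraries that stand apart left out, limma again called 0 of 16338 genes (smallest adjusted p of 0.0591), and 957 (5.86%) had an unadjusted p under 0.05, 3.58% higher and 2.28% lower in AI. In that set 3 genes (0.0184%), both C4a genes and the cathepsin gene Ctsz, had all 8 AI values above all young values, and none had all below. The median log2 difference over all genes was -0.01. In what follows, levels are normalized counts, which are not per length and are compared only within a gene, and differences are AI minus young on the log2(normalized count + 1) scale, which understates differences of low genes. Counts of list members at an unadjusted p under 0.05 are descriptions to be read beside 2.53% and 2.15%. Some genes are in several lists, such as Cd68 in the microglial and lysosomal lists, so the counts of different lists are not independent. Several described genes were also chosen by the study for their direction on samples that include these. Its age genes include C3, Itgb2, Cd74, Cx3cr1, Csf1r, Trem2, Gpr84, Ctss, Ctsz, Npc2, Gfap and Slc14a1. Its impairment genes include Cacnb2, Itpr1, Hpca, Prkca, Homer3 and Gabra5. Counts of lists that hold such genes are in part not independent of that choice. The genes with the smallest p in each direction, the class II genes and the list members given as examples beyond the first 2 of each list were chosen after their values were seen.

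Complement component C4 had the smallest p-values. C4 is the thioester protein that is deposited after C1 activation and forms the C3 convertase. The annotation carries 3 genes for it, 2 named C4a and 1 named C4b. C4a (ENSRNOG00000000443) ran from 53.1 to 151 in young (median 109) and from 94.7 to 416 in AI CA1 (median 198). Of the 12 AI libraries, 11 were above the highest young library. The difference was 1.02 ± 0.20 (SE), about 2.02-fold, with a p of 2.35e-05 and a limma adjusted p of 0.23. The other C4a gene (ENSRNOG00000047657) had medians of 91.9 and 176, and C4b had medians of 66.2 in young and 116 in AI. For both, 10 of 12 AI libraries were above every young library. Their differences were 1.06 ± 0.21 and 0.96 ± 0.20. Reads of similar gene copies can be split between them in counting, and how far this happened here was not measured. The 3 values are therefore not taken as independent, and the level of each single copy is uncertain. DESeq2 called all 3 (adjusted p of 0.000729 for both C4a genes and 0.00102 for C4b), as did limma with library weights (adjusted p of 0.0135 for C4a at ENSRNOG00000000443). The fit without AI rat R1931 called the same 3 genes. Over 38 other settings the adjusted p of this C4a gene ran from 0.000729 to 0.984. Within the R9 rats the difference of C4a at ENSRNOG00000000443 was 0.95, and within the R1 and R2 rats it was 1.11.

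The bases before the start of a C4a gene and of C4b can be compared. The 150 bases before the start of C4a (chr20:4010207-4010356, plus strand) and of C4b (chr20:4201829-4201978, plus strand), from RefSeq on GRCr8, are shown because the reads of these genes cannot be cleanly separated. Capitals mark the palindrome CACGTG (E box), 90 and 95 bases before the start. Aligned with a shift of 5 bases, 136 of 145 bases are identical (93.8%). CACGTG is in 3.74% of 33469 RefSeq promoter windows of this length, and its presence is a description of the letters.
C4a: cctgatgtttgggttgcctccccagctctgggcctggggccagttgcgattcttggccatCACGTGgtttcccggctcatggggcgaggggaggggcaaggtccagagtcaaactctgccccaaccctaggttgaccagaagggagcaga
C4b: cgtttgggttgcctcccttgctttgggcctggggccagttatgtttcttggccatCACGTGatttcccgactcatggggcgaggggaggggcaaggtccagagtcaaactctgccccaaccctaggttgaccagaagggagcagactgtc

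C3, the central complement protein cleaved by that convertase, ran from 346 to 1370 in young (median 603) and from 748 to 1610 in AI (median 1072). The highest young value was that of rat R9780, the next was 872, and 9 AI libraries were above the other 9 young ones. The difference was 0.79 ± 0.18 (p of 0.000178, limma adjusted p of 0.487), and without R9780 C3 was called with an adjusted p of 0.0391 (0.0275 to 0.9996 over 38 settings). Of 23 complement genes tested, 19 were higher in AI, 5 were higher and 1 lower at an unadjusted p under 0.05 (9 and 0 without the 4 AI libraries that stand apart), and their median difference was 0.17 against -0.01 over all genes. Itgb2, the shared chain of the complement receptors, was higher by 0.42 ± 0.14. Of the C1q chains, which start the classical pathway, C1qc was higher by 0.29 ± 0.12 (p of 0.0289), while C1qa (0.21 ± 0.12) and C1qb (0.16 ± 0.13) had larger p-values. Cfp, or properdin, which stabilizes the alternative convertase, was the 1 lower member (-0.46, p of 0.0324).

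MHC class II genes were at higher medians in AI, with 1 young rat among the highest. Class II molecules are pairs of an alpha and a beta chain, RT1-Da with RT1-Db1 and RT1-Ba with RT1-Bb in the rat, assembled on the invariant chain Cd74. Each of these 4 chain genes has 1 copy of TGATTGG, the inverted CCAAT letters of the Y box known from class II promoters, in the 150 bases before its start. These windows are printed as a description of the letters. They lie at chr20:4515265-4515414 (RT1-Da, plus strand), chr20:4560163-4560312 (RT1-Db1, minus strand), chr20:4576907-4577056 (RT1-Ba, plus strand) and chr20:4604119-4604268 (RT1-Bb, minus strand), from RefSeq on GRCr8. Capitals mark TGATTGG, which starts 51, 82, 45 and 63 bases before the gene start in this order. The letters were chosen after these promoters were read, and they occur on either strand in 4.67% of the 33469 windows of this length and in 10 of 22 genes of the antigen presentation list that have one. Cd74 has none in its window, although its young maximum was in the same rat as that of the 4 chain genes, R9780. The class I gene RT1-A1 has them. Whether the letters go with the levels was not tested.
RT1-Da: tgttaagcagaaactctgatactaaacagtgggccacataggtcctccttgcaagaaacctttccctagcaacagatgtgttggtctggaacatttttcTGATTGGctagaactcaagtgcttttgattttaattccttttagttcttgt
RT1-Db1: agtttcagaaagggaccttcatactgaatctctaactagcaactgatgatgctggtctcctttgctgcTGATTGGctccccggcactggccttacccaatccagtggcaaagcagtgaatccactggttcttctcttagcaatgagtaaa
RT1-Ba: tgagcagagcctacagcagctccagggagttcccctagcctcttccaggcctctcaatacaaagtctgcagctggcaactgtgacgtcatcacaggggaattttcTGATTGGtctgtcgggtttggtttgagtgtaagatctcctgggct
RT1-Bb: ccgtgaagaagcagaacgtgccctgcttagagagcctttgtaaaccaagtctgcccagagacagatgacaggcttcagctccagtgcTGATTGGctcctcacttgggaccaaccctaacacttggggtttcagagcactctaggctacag

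RT1-Da ran from 7.4 to 216 in young (median 21.9) and from 39.4 to 134 in AI (median 89.1). RT1-Db1 ran from 2.29 to 184 in young (median 10.3) and from 11.8 to 251 in AI (median 67.8). The young maximum of both was rat R9780, and all 12 AI libraries were above the young median. Without R9780, the highest young values were 67.2 and 45, and 8 and 9 AI libraries were above them. The differences were 1.66 ± 0.41 for RT1-Da and 2.27 ± 0.56 for RT1-Db1, each with a limma adjusted p of 0.758. Without R9780 both were called with an adjusted p of 0.0391, and over 38 settings the adjusted p of RT1-Da ran from 0.0391 to 0.9996 and that of RT1-Db1 from 0.0275 to 0.9996. RT1-Bb had medians of 13.8 in young and 74.5 in AI (difference 1.44 ± 0.67, p of 0.0413), and RT1-Ba had medians of 14.9 and 70.4 (1.13 ± 0.70, p of 0.119). AI rat R2233 had 0 reads of RT1-Bb and AI rat R9874 had 0 of RT1-Ba, and R9780 again held the young maximum. Without the 4 AI libraries that stand apart, which include R2233 and R9874, the differences were 1.89 and 1.74. Cd74 ran from 52.5 to 895 in young (median 93.4) and from 95.7 to 967 in AI (median 400). Its difference was 1.49 ± 0.41 (adjusted p of 0.928), and 7 AI libraries were above the 9 young libraries other than R9780. RT1 genes are a multigene family, and reads shared between members can be split.

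Within the identifier series, the difference of RT1-Da was 1.07 in the R9 rats, which hold R9780, and 2.21 in the R1 and R2 rats. For RT1-Ba it was 0.28 and 1.86. Of 24 genes of antigen presentation, 23 were higher in AI, 6 at an unadjusted p under 0.05 and none lower at it, with a median of 0.35. Nlrc5, the transactivator of class I genes, was among them at 0.81 ± 0.33 (p of 0.0199), from medians of 23 and 33.6. On the class I side B2m, the light chain of class I molecules, had medians of 2571 and 2610 (0.01 ± 0.15), RT1-A1 differed by 0.17 ± 0.21, and the peptide transporter gene Tap1 by 0.49 ± 0.26 (p of 0.0656). Without the 4 AI libraries that stand apart, 12 of the antigen presentation genes were higher at an unadjusted p under 0.05, against 3.58% of all genes.

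Microglial genes were higher as a group, by small steps. Of 40 microglial genes, 36 were higher in AI, 18 at an unadjusted p under 0.05 and none lower at it, with a median of 0.28. Of the genes named here, Pld4, Cx3cr1, Csf1r, Trem2 and Gpr84 were chosen by the study as higher with age on samples that include these. Their summed level ran from 9532 to 15424 in young (median 11505) and from 11852 to 16950.4 in AI (median 14308), and the young maximum was again R9780, the next being 12523. Pld4, a lysosomal nuclease of phagocytes that is in the study's age list, ran from 296 to 423 in young (median 331) and from 336 to 603 in AI (median 474). Above all young ones lay 9 AI libraries, and the difference was 0.45 ± 0.10 (p of 0.000125, limma adjusted p of 0.409, DESeq2 adjusted p of 0.0304, range over 38 settings 0.0211 to 0.9998). Cx3cr1, the fractalkine receptor, ran from 296 to 422 (median 334) and from 314 to 575 (median 446), a difference of 0.37 ± 0.10. Above the young maximum lay 7 AI libraries. Cd68, a lysosomal membrane glycoprotein of phagocytes, ran from 9.73 to 22.2 (median 12.5) and from 15.1 to 45.9 (median 26.9). Above the young maximum lay 10 AI libraries, and the difference was 0.90 ± 0.22. The lipid-sensing receptor Trem2 was at medians of 127 and 184 (0.45 ± 0.16), the growth factor receptor Csf1r at 1378 and 1746 (0.23 ± 0.08), and the orphan receptor Gpr84 at 63.4 and 91.02 (0.56 ± 0.16). P2ry12, a purinergic receptor of resting microglia, was higher by 0.30 ± 0.12, and Spi1, the lineage transcription factor, by 0.37 ± 0.17. Other common markers did not separate: Aif1 (Iba1) differed by -0.19 ± 0.25, Tmem119 by 0.14 ± 0.13 and Itgam by 0.17 ± 0.16. With the 8 other AI libraries, 24 microglial genes were higher at an unadjusted p under 0.05 and the median was 0.32. The median was 0.29 in the R9 rats and 0.30 in the R1 and R2 rats.

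Lysosomal genes differed less but largely to the same side. Of 46, 38 were higher in AI, 8 at an unadjusted p under 0.05 (14 over the 8 other AI libraries) and none lower at it, and the median was 0.10. Hexa, the alpha chain of beta-hexosaminidase, ran from 453 to 609 in young (median 528) and from 568 to 1068 in AI (median 638). All 12 AI libraries were above 9 of the 10 young ones, the exception being R9780, and the difference was 0.34 ± 0.09. Tpp1, a peptidase, was higher by 0.41 ± 0.13, Npc2, which carries cholesterol out of the lysosome, by 0.34 ± 0.11, and Grn (progranulin) by 0.24 ± 0.08. The cathepsins Ctss, at medians of 2745 and 3158, and Ctsz, at 191 and 254, were higher by 0.31 ± 0.11 and 0.41 ± 0.15. For Ctsz, 9 AI libraries were above the young maximum, and with library weights its limma adjusted p was 0.0136 (0.0136 to 0.9998 over 38 settings). Rnaset2, an RNase of lysosomes, was at 136 and 200 (0.63 ± 0.16), also with 9 AI libraries above all young ones.

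Interferon-stimulated and astrocyte genes held a few higher members in lists with medians of 0.04 to 0.10 over all libraries. Of 34 interferon-stimulated genes, 22 were higher, 4 at an unadjusted p under 0.05, and the median was 0.10. It was -0.05 in the R9 rats and 0.27 in the R1 and R2 rats. Irf1, an interferon-induced transcription factor, was at medians of 108 and 159 (0.50 ± 0.13) with 7 AI libraries above all young ones, and Parp14 was higher by 0.36 ± 0.14. Gfap, the intermediate filament of astrocytes, ran from 9860.2 to 21816 in young (median 13706) and from 11155 to 26940 in AI (median 18848), and 3 AI libraries were above the young maximum. Its difference was 0.41 ± 0.15 (p of 0.0125, limma adjusted p of 0.928). Slc14a1, a urea transporter of astrocytes, was at 540 and 627 (0.22 ± 0.08). Over the 22 astrocyte genes the median was 0.06 with 2 higher at an unadjusted p under 0.05, and Aqp4, the water channel, differed by -0.11 ± 0.16. Over 22 reactive astrocyte genes 4 were higher and none lower at an unadjusted p under 0.05. The median of this list was 0.04, and 0.23 without the 4 AI libraries that stand apart. Vim, another intermediate filament gene of this list, differed by 0.02 ± 0.32. Tgfb1, counted among senescence and secreted factors, was at 92.8 and 126 (0.41 ± 0.13), with 10 AI libraries above all young ones.

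Cdh1, or E-cadherin, an adhesion molecule of epithelial cells, had the largest difference but one, after RT1-Db1, among the 12 genes higher in AI with the smallest p. It ran from 2.15 to 140 in young (median 17.4) and from 35.3 to 209 in AI (median 72.7). All 12 AI libraries were above the young median, but young rat R2175 (140) was above all AI libraries except 1. That 1 was R2231, and R2175 and R2231 were also highest and second for the smooth muscle genes Cnn1 and Myl9. Whether that tissue has a part in the Cdh1 values was not tested. The Cdh1 difference was 2.20 ± 0.47 (p of 7.72e-05, adjusted p of 0.316), and without R2175 Cdh1 was called by limma with an adjusted p of 0.0205 (0.0205 to 0.9998 over 38 settings). It is 1 of 24 genes that the study listed as increased with age in all subfields. That list was chosen by the study for this direction on samples that include these, so its direction here is not independent evidence. All 24 were higher in AI, 21 at an unadjusted p under 0.05, by 0.22 to 2.20 with a median of 0.42. The 3 others were Gpr183 (0.30 ± 0.26, and 0.51 over the 8 other AI libraries), Ncf1 (0.36 ± 0.19) and Wdfy4 (0.41 ± 0.30). Members not yet described included the T-cell and microglial coreceptor Cd4 (0.61 ± 0.24), the inhibitory Fc receptor Fcgr2b (0.46 ± 0.22), the cadherin Cdh23 (0.49 ± 0.16), Bpifb4 (0.83 ± 0.40), the actin regulator Nckap1l (0.30 ± 0.11) and the protocadherin Pcdhb4 (0.35 ± 0.14). The lowest AI values of Bpifb4 (1.47), Wdfy4 (6.56) and Cd4 (48.9) were in R2233, R1931 and R9874, which stand apart. Differences without these libraries are not given for them. With library weights, limma called 8 of the 24.

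**Figure D2:**
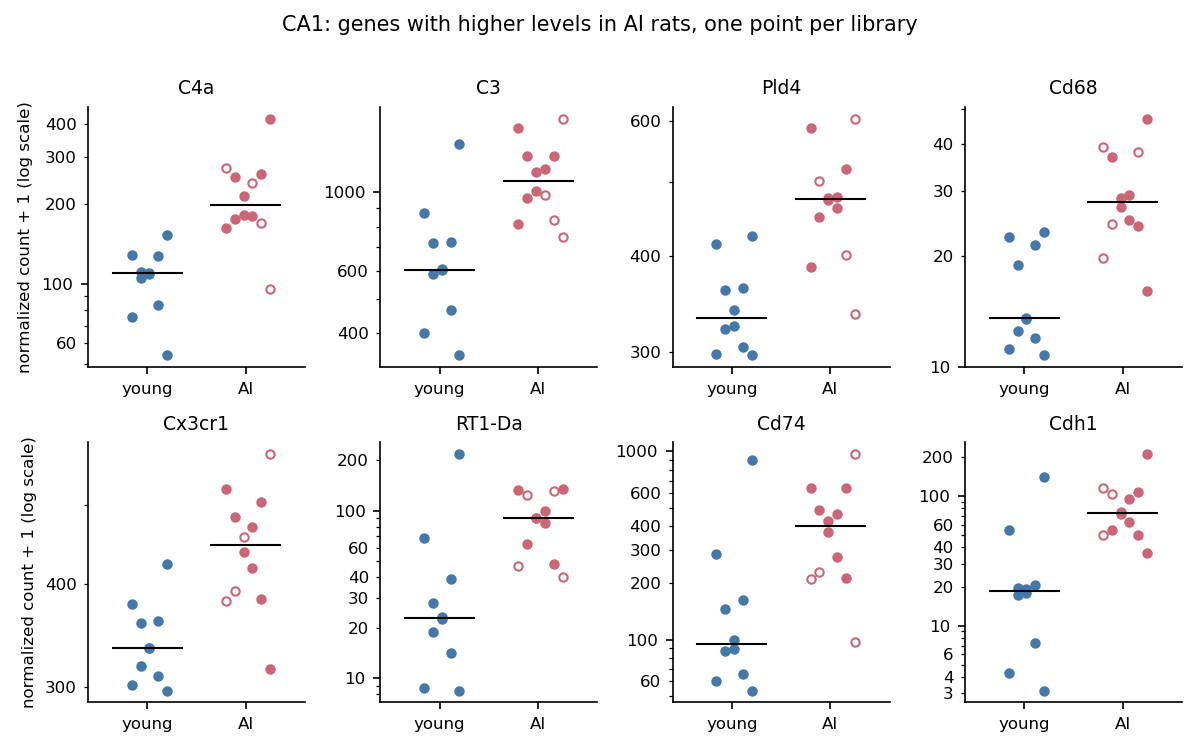
Normalized count + 1 on a log scale of 8 genes that were higher in AI, with 1 point per CA1 library (10 young, 12 AI), a black line at the median and open points for the 4 AI libraries that stand apart. For C4a (ENSRNOG00000000443) 11 AI points lie above every young point, while 1 young point, rat R9780, lies at 216 for RT1-Da and 895 for Cd74.

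Among genes at lower levels in AI, again with no call, Cxcr1 and Col11a1 are described first. Cxcr1, an interleukin-8 receptor, ran from 19.4 to 52.1 in young (median 33) and from 6.62 to 27.6 in AI (median 17.6). All 12 AI libraries were below the young median and 6 were below every young library, and the difference was -1.01 ± 0.25 (p of 0.000479, adjusted p of 0.758). Col11a1, a fibrillar collagen chain, ran from 116 to 279 and from 42.5 to 181, with medians of 187 and 114, and 6 AI libraries below all young ones (-0.77 ± 0.20). Of 51 collagen and matrix genes, 3 were lower and none higher at an unadjusted p under 0.05 (1 lower over the 8 other AI libraries), and their median was -0.03. Sema3c, a secreted guidance protein, ran from 161 to 430 in young (median 239) and from 25 to 295 in AI (median 124). Below all young ones lay 8 AI libraries, the difference was -1.03 ± 0.30, and with library weights Sema3c was the 1 lower gene called by limma (adjusted p of 0.0423, range over 38 settings 0.0423 to 0.9998). Tmem54, a membrane protein, was at medians of 979 and 439 (-1.10 ± 0.31), with 7 AI libraries below the young minimum and young R9780 far above the rest at 2784. The small GTPases Rasl11b, at 551 and 377, and Hras, at 654 and 552, had differences of -0.52 ± 0.15 and -0.32 ± 0.09. For Hras 8 AI libraries were below every young library. Adamts3, a procollagen protease, was at 444 and 302 (-0.55 ± 0.16), and the low-count genes Cartpt (-1.97 ± 0.55), Casr (-1.47 ± 0.44) and Stoml3 (-2.25 ± 0.62) were at medians of 8.07 and 1.41, 11.1 and 4.39, and 11.6 and 2.26.

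Genes of motile cilia mark the ependymal cells that line the ventricle beside the hippocampus. Of 10 tested none was higher in AI, 5 were lower at an unadjusted p under 0.05, and the median was -0.44. Tmem212 ran from 3.43 to 63.8 in young (median 12.2) and from 0 to 27.6 in AI (median 2.29), with 5 AI libraries at 0 and a difference of -2.12 ± 0.64. Mlf1 had a difference of -1.85 ± 0.57, the central-pair protein gene Spag17 one of -1.62 ± 0.66, Ccdc153 one of -0.76 ± 0.31, and the dynein heavy chain gene Dnah9, at medians of 1190 and 939, one of -0.39 ± 0.18. The summed level of the list overlapped between groups, from 819.7 to 2151 in young (median 1456) and from 791 to 1716 in AI (median 1242). Dnah9 made up a large part of this sum, which therefore says little of the low-count members. With the 8 other AI libraries, 4 genes were lower at an unadjusted p under 0.05 and the median was -0.27. These genes mark a cell type at the dissection border, and the part of tissue sampling in the difference was not tested.

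Among neuronal genes, calcium handling held the most members on the lower side when all 22 libraries were used. Of 61 calcium channels, pumps and sensors, 11 were lower and 1 higher at an unadjusted p under 0.05, where 2.15% and 2.53% of all genes were, and the median was -0.11. Of the 11, Cacnb2, Itpr1, Hpca and Prkca were chosen by the study as lower in AI than in AU on the same AI libraries. The count is therefore in part not independent evidence. Cacnb2, an auxiliary subunit of voltage-gated calcium channels, ran from 906 to 1506 in young (median 1102) and from 595 to 1209 in AI (median 864). Below the young minimum lay 7 AI libraries, and the difference was -0.33 ± 0.11 (p of 0.00504, limma adjusted p of 0.928). Among the release channels of internal stores, Ryr1 was at medians of 259 and 192 (-0.59 ± 0.22, and -0.31 without the 4 AI libraries that stand apart), Ryr3 at 1056 and 849 (-0.28 ± 0.12) and the inositol trisphosphate receptor Itpr1 at 9263 and 7984 (-0.27 ± 0.10). The N-type channel gene Cacna1b (-0.19 ± 0.08), the calcium sensor Hpca (-0.46 ± 0.19), the calcineurin subunit Ppp3r1 (-0.41 ± 0.19), the kinase genes Prkca (-0.31 ± 0.13), Camk1d (-0.23 ± 0.11) and Camkk2 (-0.25 ± 0.12) and the mitochondrial uniporter Mcu (-0.22 ± 0.10) made up the rest. The 1 higher member was the exchanger Slc8a3 (0.43 ± 0.19), and the L-type channel gene Cacna1c differed by -0.16 ± 0.18. When the 4 AI libraries that stand apart were left out, 5 were lower and 2 higher, and the median was -0.04. In that set the immediate early genes had more lower members, 7 of 30.

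Of 30 immediate early genes, 10 were higher in AI, 3 were lower at an unadjusted p under 0.05, none was called, and the median was -0.13. Junb, an AP-1 transcription factor, ran from 249 to 554 in young (median 436) and from 177 to 401 in AI (median 307), with all 12 AI libraries below the young median. Its difference was -0.45 ± 0.16 (p of 0.0108). The MAP kinase phosphatases Dusp5 (-0.48 ± 0.21) and Dusp6 (-0.24 ± 0.12) were the other members at that p. Arc, a regulator of receptor endocytosis, was at medians of 1566 and 1348 (-0.33 ± 0.18, p of 0.0791), Npas4 at 79.98 and 46.6 (-1.02 ± 0.57), Egr1 at 1022 and 963 (-0.26 ± 0.21) and Fos at 94.1 and 95.2 (0.04 ± 0.32). When the 4 AI libraries that stand apart were left out, 7 were lower and 1 higher at an unadjusted p under 0.05, with a median of -0.16.

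Receptor and channel lists had few members at an unadjusted p under 0.05, and fewer without the 4 AI libraries that stand apart. Of 41 glutamate receptor and scaffold genes, 3 were higher and 3 lower at that p, with a median of -0.03, and 1 and 0 without those libraries. Homer3, a scaffold of metabotropic receptors, was at medians of 504 and 374 (-0.46 ± 0.18), and Grin1, the obligatory NMDA receptor subunit, at 6208 and 6548 (-0.03 ± 0.11). Of 19 genes of GABA receptors and synthesis, 7 were higher, and Gabra5, the subunit of extrasynaptic receptors abundant in CA1, was the 1 at that p (-0.44 ± 0.21, p of 0.0466), as it was over the 8 other AI libraries (-0.30). Of 64 potassium channel genes, 4 were higher and 3 lower, and 2 and 0 without those libraries. Kcnj16 was at 203 and 260 (0.66 ± 0.24, and 0.34 without them) and Kcnh1 at 597 and 502 (-0.33 ± 0.13). Of 69 genes of oxidative phosphorylation, 4 were lower and none higher (7 and none without those libraries), with Cox5a, a cytochrome oxidase subunit, at 260 and 178 (-0.51 ± 0.20), and the list median was -0.07. Chaperones (41 genes, median -0.01), cholesterol synthesis (24 genes, 0.01), oligodendrocyte precursors (22 genes, 0.02) and myelin genes (33 genes, 0.09) had at most 1 member at an unadjusted p under 0.05, and the chaperones had 3 lower without those libraries. In the myelin list it was Tf, or transferrin, at 7383 and 10583 (0.39 ± 0.17), and Mbp differed by 0.13 ± 0.21. The highest Tf value, 21914, was in AI rat R9870, and without those libraries 0 myelin genes were at that p. Of 33 clustered protocadherins 2 were higher (median 0.08), and 6 without those libraries, and of 29 genes of neurogenesis and proliferation 2 were lower, Bub1 (-0.80 ± 0.32, and -0.50 without them) and Aurkb (-1.37 ± 0.61), with a median of -0.20 that was 0.03 without the 4 AI libraries that stand apart.

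A set of 28 genes of calcium binding, synapse and excitability that the study's text names among its genes linked to impairment in CA1 was also examined. It is a part of a longer list and does not stand for it. In these 28, 4 were higher in AI than in young, 16 were lower and 2 higher at an unadjusted p under 0.05, and the median was -0.30. The study chose them on the same AI libraries, so this is not independent evidence. Scube2, a secreted protein, ran from 102 to 279 in young (median 179) and from 64.8 to 169 in AI (median 126), and Dgka, a diacylglycerol kinase, from 671 to 1228 (median 889) and from 595 to 856 (median 760). All 12 AI libraries were below the young median for both, and the differences were -0.53 ± 0.17 and -0.29 ± 0.09. Over the 8 other AI libraries, 7 were lower and 1 higher, and the median was -0.21.

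**Figure D3:**
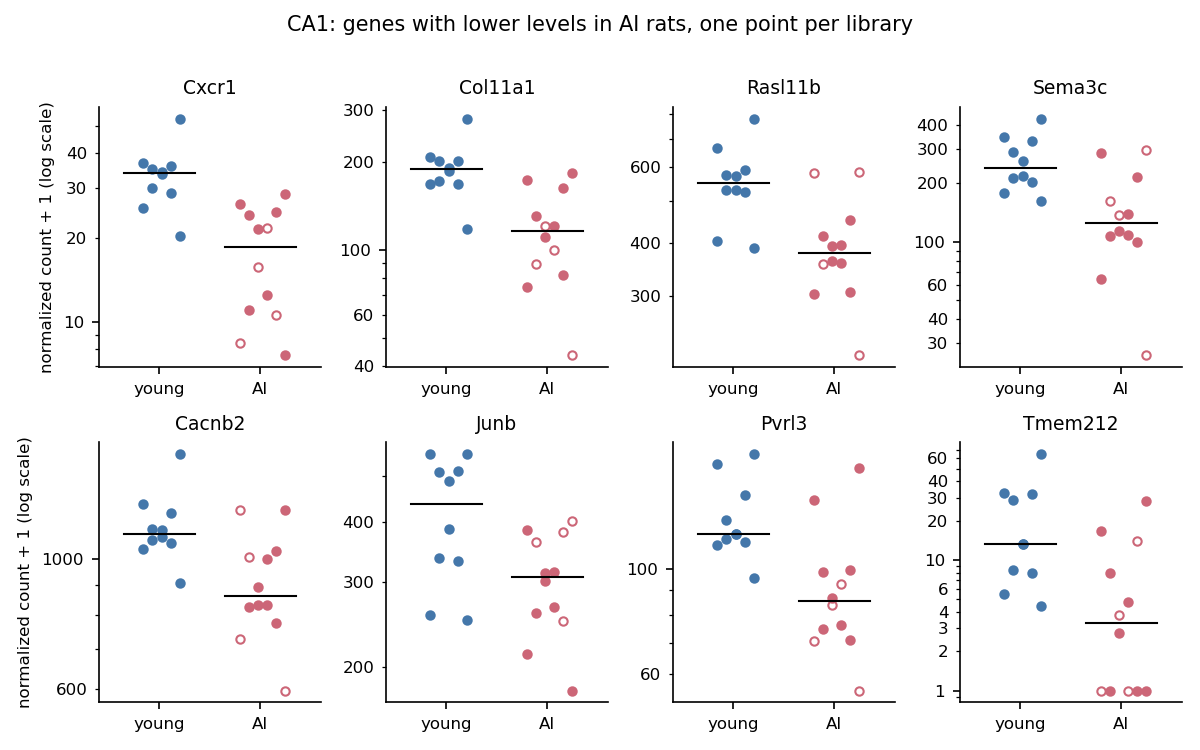
Normalized count + 1 on a log scale of 8 genes that were lower in AI, drawn as in the plot of higher genes. For Cxcr1 and Junb all 12 AI points lie below the young median, and for Tmem212 5 AI libraries have 0 reads.

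Markers of neighbouring fields and of other tissues moved with the groups in part. Of 5 CA1 pyramidal markers tested, none was at an unadjusted p under 0.05, and the median was -0.06, with Wfs1 at medians of 5333 and 5245. Of 8 CA3 and CA2 markers none was higher in AI and 3 were lower at an unadjusted p under 0.05, with a median of -0.34, and over the 8 other AI libraries 1 was lower at it and the median was -0.30. Pvrl3 (nectin-3) ran from 94.7 to 173 in young (median 117) and from 54.5 to 162 in AI (median 84.4), with 8 AI libraries below the young minimum (-0.51 ± 0.16), and Rgs14, a CA2 signalling protein, was at 1971 and 1733 (-0.37 ± 0.14). Of 9 subiculum and cortex genes 7 were higher (median 0.32), of 8 thalamic genes 6 were higher (median 0.35), and of 7 dentate granule genes 4 were higher (median 0.02). Without the 4 AI libraries that stand apart, these medians were 0.18, 0.38 and 0.28, and 2 dentate granule genes were higher at an unadjusted p under 0.05. Among the thalamic genes Tnnt1 was lower (-1.36 ± 0.45) and Ntng1 higher (0.38 ± 0.15), and among the subicular genes Tshz2 ran from 128 to 2194 in young and from 256 to 4069 in AI (1.06 ± 0.45). The choroid plexus list (11 genes, median 0.56) had no member at an unadjusted p under 0.05, and its median was -0.13 without AI rat R9870. Its sum was 180437 in AI rat R9870, 11468 in the next AI library and at most 2092 in young. Hemoglobin Hba-a2 was at medians of 444 and 862 with a maximum of 7129 in AI rat R9874 (1.21 ± 0.44), and without the 4 AI libraries that stand apart its difference was 0.48. Prl, the pituitary hormone prolactin, had 0 reads in all 10 young libraries and in 5 of 12 AI libraries, and reached 55.8 in AI rat R2231. No fold is given for Prl, since 1 group was at 0. The part of these tissues in the other differences was not tested. Interneuron (18 genes, median -0.16), endothelial (20 genes, 0.08), pericyte and smooth muscle (12 genes, -0.06) and striatal genes (7 genes, 0.16) had at most 1 member each at that p.

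**Figure D4:**
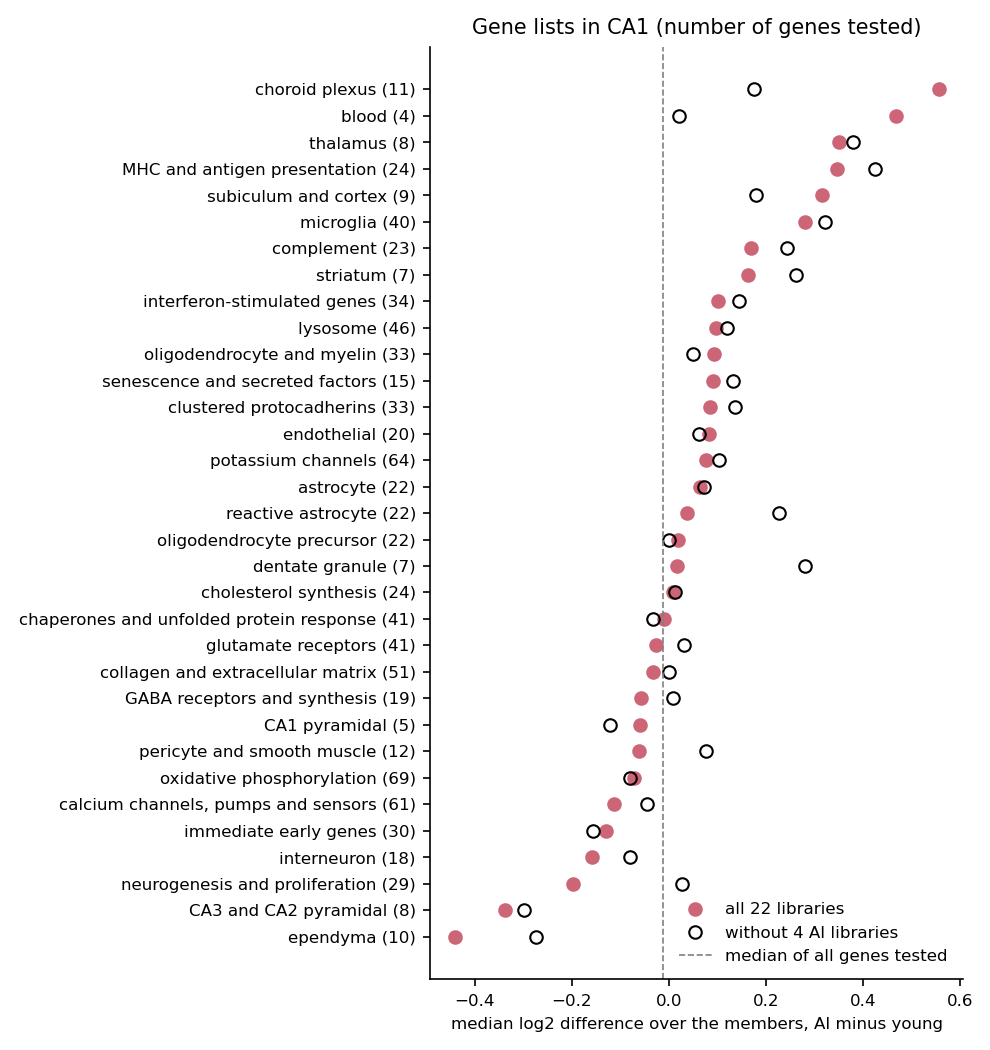
Median log2 difference (AI minus young) over the tested members of 33 gene lists, with all 22 libraries as filled and without the 4 AI libraries that stand apart as open points. The dashed line is the median of all genes tested (-0.01), and the microglial list lies at 0.28 and 0.32 while the choroid plexus list moves from 0.56 to 0.18.

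To see whether these differences went with age or with memory status, the AU rats were set beside the AI rats. AU against young CA1 shares the 10 young libraries with the comparison above, so the values are given side by side only, and the difference between them is tested by AI against AU. AU against young called 0 of 16364 genes with limma, with 714 (4.36%) at an unadjusted p under 0.05, and 17 genes (0.104%), all higher in AU, were called over the 8 AU libraries that do not stand apart. C4a at ENSRNOG00000000443 was higher by 1.05 ± 0.19 in AU and by 1.02 ± 0.20 in AI, and AI minus AU was -0.03 ± 0.20 (p of 0.87). Without the CA1 libraries that stand apart the AU value was 1.13 ± 0.17 (limma adjusted p of 0.00546, and 0.121 with all libraries). C3 was higher by 0.77 ± 0.30 in AU and by 0.79 ± 0.18 in AI, and RT1-Da by 1.49 ± 0.71 and 1.66 ± 0.41. Without those libraries the AU values were 1.14 and 2.03. Gfap was higher by 0.70 ± 0.14 in AU and by 0.41 ± 0.15 in AI, and AI minus AU was -0.28 ± 0.13 (p of 0.0377, limma adjusted p of 0.9998), and -0.32 without those libraries. The microglial median was 0.28 in both comparisons, with 12 members at an unadjusted p under 0.05 in AU, and over the 8 other AU libraries it was 0.45 with 29 members, where 5.47% of all genes were higher at that p. Of the genes lower in AI, Pvrl3 differed by -0.01 ± 0.20 in AU, and AI minus AU was -0.50 ± 0.21 (p of 0.0269). Without the libraries that stand apart these were 0.09 and -0.47 (p of 0.0308). Tmem212 differed by -0.25 ± 0.65 in AU (AI minus AU -1.87, p of 0.0142), and the ependymal median was -0.11 in AU. Both turned without those libraries, to 0.51 and 0.03 in AU, with AI minus AU at -2.46 for Tmem212. Cacnb2 differed by -0.10 ± 0.12 in AU (AI minus AU -0.23, p of 0.0804), and 6 calcium genes were lower there at an unadjusted p under 0.05, or 4 without those libraries, where 2.69% of all genes were. AI against AU called 0 of 16406 genes with limma, with 341 (2.08%) at an unadjusted p under 0.05. The smallest p-values with all libraries were those of Rerg (-0.86) and Gpr12 (-0.75). Without the libraries that stand apart 825 were at that p (2.89% higher and 2.16% lower), again with 0 called. Without those libraries, dentate granule genes had an AU minus young median of -0.51, with 3 of 7 lower at an unadjusted p under 0.05. Their AI minus AU median was 0.89, with 6 of 7 higher at that p. The AI libraries kept include R9781 and R9872, whose dentate score exceeded the CA1 score. The part of tissue sampling in the AI minus AU differences was not tested.

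The same contrast was also made in the other subfields of the same rats. The CA3 marker score was the highest of the 3 in 5 of 10 young and 8 of 12 AI libraries labelled CA3, and the dentate score in 9 of 10 and 10 of 12 libraries labelled DG. AI against young called 0 of 16450 genes in CA3, with 398 (2.42%) at an unadjusted p under 0.05, and 2 of 16203 in DG (0.0123%), with 1097 (6.77%). C4a at ENSRNOG00000000443 was higher by 1.08 ± 0.48 in CA3 and by 0.9995 ± 0.25 in DG, and Cd74 by 1.60 ± 0.57 and 2.11 ± 0.40. Without the 5 CA3 and 2 DG libraries that stand apart, C4a was at 0.59 ± 0.31 and 1.01 ± 0.26, and Cd74 at 1.46 and 2.27. Cdh1 was higher by 0.59 ± 0.68 in CA3 and by 2.68 ± 0.40 in DG, and RT1-Ba by 2.04 and 2.34. These are the 2 genes called in DG, with limma adjusted p-values of 0.0076 for Cdh1 and 0.0301 for RT1-Ba. Without the 2 DG libraries that stand apart 5 genes (0.0309%) were called, Cdh1, RT1-Ba, Cd74, Ctsz and Gpnmb (chosen after values were seen). The microglial median was 0.24 in CA3 and 0.38 in DG, with 6 and 24 members higher at an unadjusted p under 0.05, and 0.21 and 0.40 without the libraries that stand apart. Differences of the contrast between subfields were tested on the difference within each rat. CA1 minus CA3 called 0 of 16443 genes (231 or 1.4% at an unadjusted p under 0.05), and CA1 minus DG called 0 of 16292 (564 or 3.46%). For Pvrl3 the CA3 and DG differences were 0.07 and -0.04, and CA1 minus DG was -0.47 ± 0.19 (p of 0.0199, limma adjusted p of 0.9999). For Tmem54 CA1 minus DG was -0.96 ± 0.32 (p of 0.00622), and for Rnaset2 CA1 minus CA3 was 0.76 ± 0.29 (p of 0.0138). The calcium list had 11 lower members in CA1, but 5 lower and 2 higher without the 4 AI libraries that stand apart. It had none lower in CA3 and 1 lower and 5 higher in DG (0 and 3 without the libraries that stand apart). Without them, 1.08% of all genes were higher and 1.35% lower at that p in CA3, and 4.12% and 2.67% in DG. Whether these counts differ between subfields was not tested as a list.

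**Figure D5:**
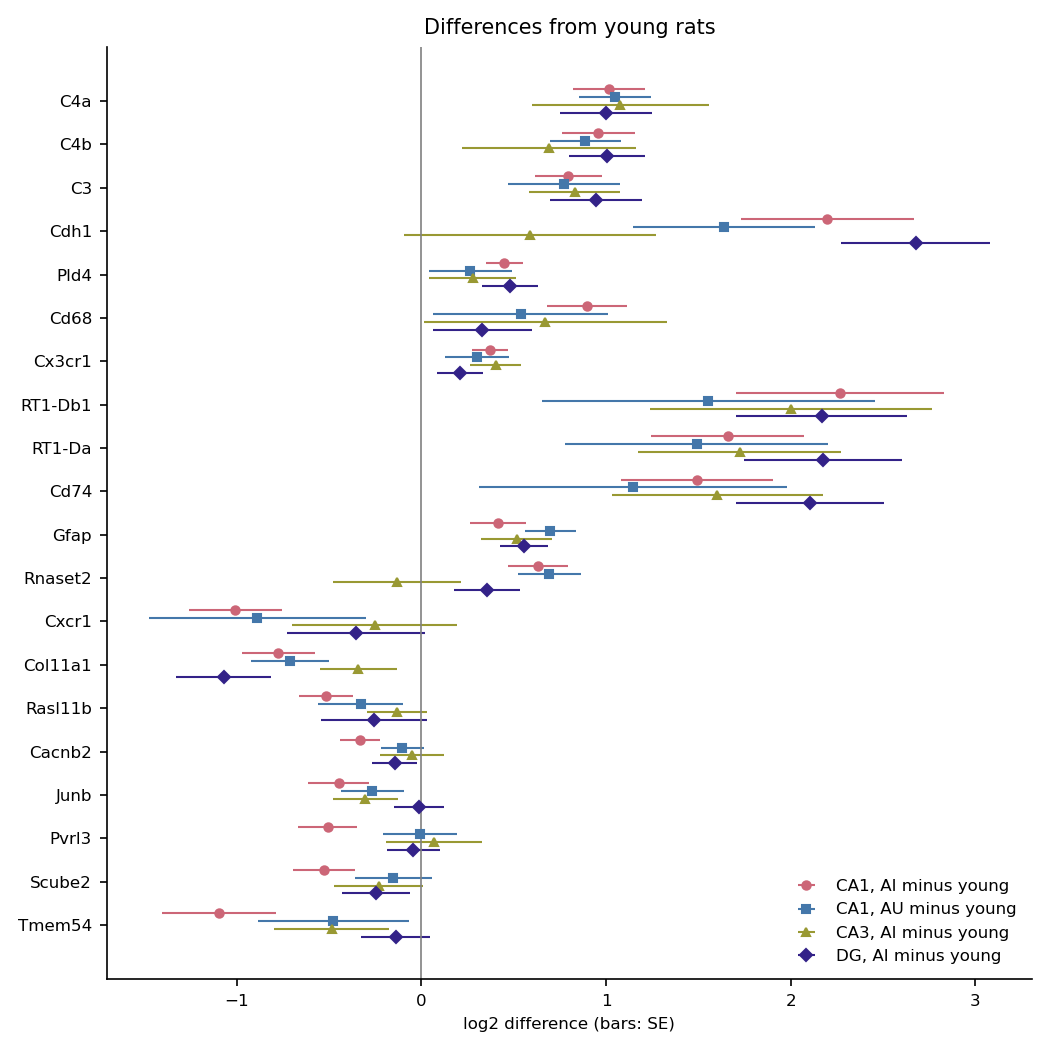
Log2 differences with SE bars of 20 genes in 4 comparisons: AI minus young in CA1, AU minus young in CA1, and AI minus young in CA3 and in DG. The C4a, C3 and Cd74 points lie above 0 in every comparison, while Pvrl3 lies at -0.51 in AI CA1 and between -0.04 and 0.07 in the other 3.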

How the data were processed

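Poly-A RNA of dissected CA1, CA3 and DG was sequenced on the Ion Proton. Per the labels and the study's methods, the authors aligned reads to rn5 with TopHat2 and Bowtie2 in Partek and counted them per gene with featureCounts 1.4.4. DESeq2 1.10.1 is named for their differential tests, and the tool of the normalization step is not given in the sources used here. The values are reads divided by 1 factor per library. The deposited values are therefore a normalized read-count signal per gene, for 26689 genes and 102 libraries. All values returned whole reads (100% within 1e-06) after division by the library's step, which is its smallest value above 0. These reads gave the read totals. In 3 libraries, none of them AI or young CA1, this step was close to 1, and the recovery of whole reads is less certain there. How this processing treated strand is not given in the sources used here, so reads of overlapping genes cannot be told apart.

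Gene symbols are those of the deposited file, in which 4719 genes had none, and list entries were also matched through RefSeq synonyms. Promoter sequences are from RefSeq on GRCr8, another build than the counts. CA1 libraries were compared with limma 3.58.1 in R 4.3.3 (lmFit, eBayes with trend, two-sided) on log2(normalized count + 1), keeping genes whose mean over the compared libraries reached 5. A gene was called at a Benjamini-Hochberg adjusted p-value under 0.05. Differences between subfields were fitted on the difference within each rat, since the labels give CA1, CA3 and DG libraries of the same animal. The check of this pairing gave a mean correlation of deviations of 0.0587 (CA1 with CA3) and 0.0919 (CA1 with DG) over 22 rats. These ran from -0.28 to 0.48 and from -0.32 to 0.49, and the rat's own library was the best match in 2 and 3 rats. The pairing therefore rests on the labels. edgeR 4.0.16 and DESeq2 1.42.0 were run on the recovered reads as alternatives. The fits across all genes were tested on simulated data. No 2 libraries were identical (correlations 0.835 to 0.988).

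The comparison and the 36 gene lists (97 of 1052 entries unmatched) were chosen with earlier results of these data known. Named genes were, for each list, the 2 members with the smallest p where none was called, the study's age genes, and genes said to be chosen after their values were seen. List counts are descriptions without a set test. Reads without molecular identifiers limit depth statements to counting error.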

Additional observations from a re-analysis of the deposited data

Results flagged for a closer look

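Among the 100 named genes, 4 had 1 young CA1 library far from the other 9, by Dixon's criterion on the log2 scale (gap to the nearest library over the group's range 0.502 to 0.633). About 1 in 20 groups is singled out this way by chance, so 4 of 100 is a count to be read with that share. Tmem54 stood at 2784 normalized counts in young rat R9780 against 535 to 1192 in the other 9. Hsd17b7, of cholesterol synthesis, stood at 70.5 in young rat R1922 against 32.9 to 48.1. The smooth muscle genes Cnn1 and Myl9 stood at 87.3 and 683 in young rat R2175, against 0 to 7.09 and 81.7 to 178 in the other young libraries.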

How the results depend on the processing

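Of 38 other settings for AI against young CA1, 33 called 0 genes, including pseudocounts of 0.5 and 5, all genes above 0, a minimum mean of 20, TMM, edgeR, depth or identifier series as a covariate, each series alone, and the fit without the 4 AI libraries that stand apart (this one, the fit without the 2 AI libraries with the fewest genes and the robust fit were chosen after seeing the data). DESeq2 called 4 genes, 3 of them over 1.5-fold, and library weights called 18, 12 of them over 1.5-fold. Leaving out each library in turn gave 0 to 3 called genes, both overall and over 1.5-fold: 3 without AI rat R1931, 3 without young rat R9780, 1 without young rat R2175. Genes at an unadjusted p under 0.05 rose from 766 to 1642 without R1931. AU against young, with 0 called, gave 1 with the identifier series as a covariate, 9 with DESeq2 and 17 without the libraries that stand apart, also chosen after seeing the data. AI against young in DG, with 2 called, gave 5 without the 2 DG libraries that stand apart, and in CA3 0 with and without such libraries. The cause of these moves was not tested.

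Of 3781 values of named genes under other settings, 3746 kept their direction and side of the threshold, 27 passed it and 8 turned direction. On the log2 scale Myl9 turned to 0.0379 in the R9 rats, to 0.16 with DESeq2 and to 0.0488 without young rat R2175 (leaving out each library, -0.33 to 0.0488). In the R1 and R2 rats Slc4a5 turned to -0.0465, Penk to -0.0927 and Igfbp5 to -0.0216. Mpped1 turned to 0.0052 with library weights and Sema5a to 0.0749 without the 4 AI libraries. Of 1367 list medians 1361 stayed within the spread of the libraries. The choroid plexus median was 3.44 with edgeR and -0.13 without AI rat R9870, and the blood median -0.15 with library weights. The pituitary median, over 3 genes, was -0.71 in the R9 rats, 1.44 in the R1 and R2 rats and -0.45 in a fit of all 3 groups, and ran from -0.54 to 0.60 when each library was left out, with the lowest value without AI rat R2231.

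Without the replicate block (the rat), CA1 minus CA3 and CA1 minus DG again called 0 genes, so dropping the pairing changed no call. A comparison of AI with young within CA1 has no pairs.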

Other observations

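Of 15 senescence and secreted factors tested, 10 were higher in AI, 2 of them at an unadjusted limma p under 0.05 and none called, with a median log2 difference of 0.09. These were Tgfb1, described above, and Igfbp5, a binding protein of insulin-like growth factors, at medians of 1074 normalized counts in young and 1224 in AI (0.24 ± 0.11, adjusted p of 0.928). Igfbp5 was at 0.54 in the R9 rats, at -0.0216 in the R1 and R2 rats and at 0.12 without the 4 AI libraries that stand apart. LOC100362384, chosen after its values were seen, was at medians of 141 and 219 (0.73 ± 0.18, limma adjusted p of 0.758), with all 12 AI libraries above the young median and 7 above the young maximum.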
